A study of Mus musculus with 4 samples.

Results

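Transketolase peaks in mouse retina were examined at genes of the folding machinery of the endoplasmic reticulum (ER): Hspa5, Hsp90b1, Hyou1, Manf, Calr, Canx, Pdia3, Pdia4, Pdia6 and Ero1a. These 10 genes, of 25784 genes with a curated RefSeq transcript, were chosen by name, and the peaks were those assigned to them by the authors plus those lying within them and assigned to a neighbour. The rule gave 13 of 30791 peaks in induced retina and 10 of 18267 in noninduced retina. Ero1a carries its older symbol Ero1l in the deposited annotation.

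The induced group was retina of induced Tet-opsin-VEGFA mice and the noninduced group was retina of Tet-opsin-VEGFA mice without induction, so the transgene was carried by both. Each group had 1 chromatin immunoprecipitation (ChIP) library and 1 input library, and the series text gives 2 retinas per condition. In such lines an opsin promoter places the tetracycline-controlled switch in photoreceptors, which makes VEGFA overexpression a product of 1 retinal cell class. The sources used here do not give the age, strain, sex, inducing agent or time of induction. The tissue label could not be checked against cell type markers, since peaks report no expression.

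Proteins that enter the ER are folded by chaperones such as BiP, which bind unfolded chains, and by foldases, which form and rearrange disulfide bonds. When unfolded proteins accumulate, the unfolded protein response raises transcription of many of these genes, in part through the ER stress response element in their promoters, which is recognised by ATF6 together with NF-Y. Photoreceptors make large amounts of membrane protein for their outer segments, and ER stress is known in retinal degeneration. Transketolase is an enzyme of the pentose phosphate pathway, and the study's title links it to ER stress in the retina apart from its enzymatic activity.

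A peak is listed with its tags, which are sequenced fragments of the ChIP library within it, and with a fold, which is the authors' enrichment over a background. Each ChIP library was called against its own input, and the sources used here do not describe how the background was estimated. The lowest and median tags of all peaks were 10 and 11 in the induced list and 14 and 18 in the noninduced list. At least 20-fold was reached by 3.48% of induced peaks and by 0.00547% of noninduced peaks, which is 1 peak. Folds are used to describe peaks within a list, and their sizes are not compared between lists. Counts at 20-fold are given for both lists. With 1 noninduced peak at that limit, a noninduced count of 0 is a trait of the list and not a result about any genes. Only tags within peaks were given, so the depth of the libraries is unknown. A single library stood for each condition, and the conditions are set side by side without a test.

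Peaks lay inside 7 of the 10 genes in the induced list and inside 5 in the noninduced list. The induced genes were Hspa5, Hsp90b1, Calr, Manf, Pdia3, Pdia4 and Ero1a, and the noninduced genes were Calr, Ero1a, Hspa5, Pdia3 and Pdia4. Over all genes, 30.3% held an induced peak inside and 23.0% held a noninduced one. Over the 13462 genes as long as the shortest to the longest of the 10, from 3186 to 35486 bp, the shares were 21.9% and 15.0%. All 5 genes with a noninduced peak inside also had an induced one, and 13.6% of all genes and 4.55% of the genes of like length had both. The peaks inside the genes numbered 12 with 566 tags (520 to 615, exact 95% Poisson interval) in the induced list and 6 with 121 tags (100 to 145) in the noninduced list. These intervals, and those below, cover counting error only. The authors assigned 7 of the 12 induced and 2 of the 6 noninduced peaks inside the genes to a neighbouring gene. The map of the 10 genes shows each of these peaks.

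**Figure D1:**
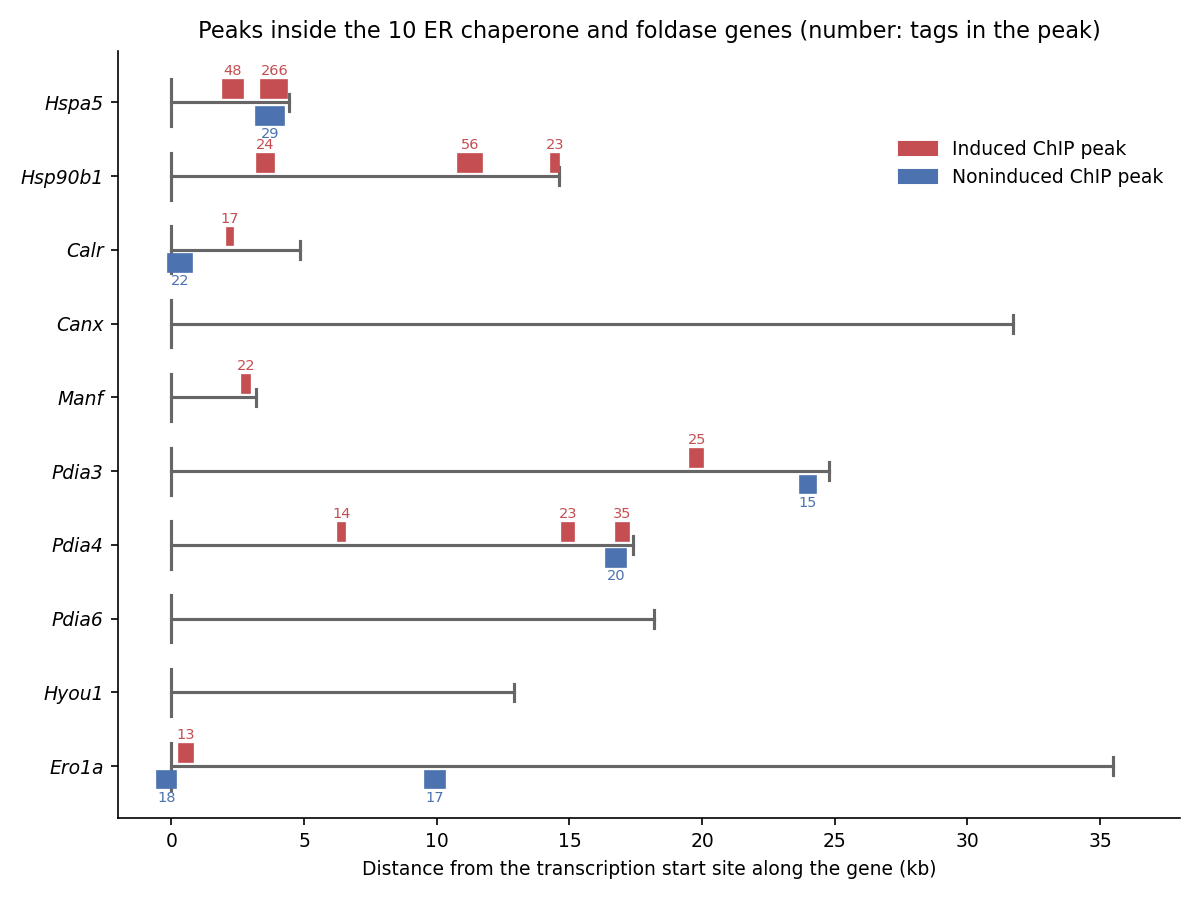
Peaks inside the 10 genes, drawn to scale from the transcription start site (long tick at 0) to the end of each gene (short tick), in kb. Red boxes above each line are induced peaks and blue boxes below are noninduced peaks, each with its tags. The peak of 266 tags at Hspa5 stands out, and Canx, Pdia6 and Hyou1 hold no box.

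Of the 10 promoters, 8 were matched in RefSeq (GRCm38.p6), with 250 bases before and 50 after the start site, and those of Manf and Hyou1 were not. The ER stress response element, searched as CCAAT and CCACG with 9 bases between them, on both strands, was found in the promoters of 5 genes, namely Hspa5, Hsp90b1, Calr, Canx and Pdia6. It was found in 39 of 32851 promoters in all, or 0.119%. The element is known from promoters of genes of this kind, as said above, so the 5 matches are not a result of these data. Its parts were common, with CCAAT in 37.4% and CCACG in 32.8% of all promoters and each in 7 of the 8. The sequence TGACGTGG, a site of the unfolded protein response factors, was in 0.676% of promoters and in none of the 8. The search was for exact letters, so variants of the element were not counted. The matches are shown so that they can be set against the peaks, and their response to stress was not measured here. Each is given 5′ to 3′ on the strand of its gene, with both conserved parts in capitals, and a match on the other strand reads CGTGG first:
Hspa5, chr2:34772025-34772043, + strand: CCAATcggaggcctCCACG
Hsp90b1, chr10:86705638-86705656, - strand: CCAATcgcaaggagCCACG
Hsp90b1, chr10:86705533-86705551, - strand: CGTGGtgaggcacgATTGG
Calr, chr8:84847075-84847093, - strand: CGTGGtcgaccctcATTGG
Canx, chr11:50325800-50325818, - strand: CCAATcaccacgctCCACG
Pdia6, chr12:17266491-17266509, + strand: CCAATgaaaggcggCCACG

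No listed peak covered any of these elements in either list. The closest was a noninduced peak whose edge lay 14 bp from the Calr element. The next closest were an induced peak 1975 bp from the Hspa5 element and an induced peak 2239 bp from the Calr element. The Hsp90b1 elements lay 3420 and 3315 bp from the nearest induced peak, and the nearest induced peaks to the Canx and Pdia6 elements lay 56110 and 72453 bp away. The nearest noninduced peaks lay 3250 bp from the Hspa5 element, 13864 bp from that of Canx, 14905 bp from that of Pdia6, and 90959 and 91064 bp from those of Hsp90b1. A match is a description of the letters and not a measured site of binding, and an element without a listed peak is not shown to be unbound.

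Upstream sequence is printed for 3 genes, the 2 whose start sites lay under or beside a promoter peak (Calr and Ero1a) and the one with the most tags (Hspa5). The 250 bases end at the base before the start site, and capitals again mark the conserved parts of the element:
Hspa5, chr2:34771840-34772089, + strand: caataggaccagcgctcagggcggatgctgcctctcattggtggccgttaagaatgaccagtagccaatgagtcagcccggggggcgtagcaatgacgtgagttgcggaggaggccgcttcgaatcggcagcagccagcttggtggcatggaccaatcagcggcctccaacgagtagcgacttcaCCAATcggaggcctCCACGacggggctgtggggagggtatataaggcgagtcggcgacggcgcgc
Calr, chr8:84846932-84847181, - strand: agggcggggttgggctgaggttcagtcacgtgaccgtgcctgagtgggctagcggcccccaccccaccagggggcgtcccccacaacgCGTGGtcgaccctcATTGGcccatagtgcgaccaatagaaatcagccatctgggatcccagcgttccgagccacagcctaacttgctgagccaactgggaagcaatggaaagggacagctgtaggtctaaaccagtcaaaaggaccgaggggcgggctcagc
Ero1a, chr14:45318573-45318822, - strand: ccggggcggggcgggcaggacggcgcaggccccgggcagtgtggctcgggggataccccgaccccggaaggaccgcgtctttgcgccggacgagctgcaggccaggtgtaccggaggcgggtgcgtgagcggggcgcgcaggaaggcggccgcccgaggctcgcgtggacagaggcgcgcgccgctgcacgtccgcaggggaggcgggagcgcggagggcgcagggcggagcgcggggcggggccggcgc

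Of these bases, the noninduced peaks covered the 130 nearest the start site at Calr and all 250 at Ero1a, and none at Hspa5. Induced peaks covered none of the 250 bases at any of the 3 genes. The nearest induced peak lay 296 bp from these bases at Ero1a, 1929 bp at Hspa5 and 2096 bp at Calr.

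Hspa5 encodes BiP, the Hsp70 chaperone of the ER lumen and the main sensor-bound chaperone of the unfolded protein response. The gene spans 4440 bp on chromosome 2 (34772090 to 34776529, + strand). Its strongest induced peak (34775485 to 34776461, classed as exon) held 266 tags (235 to 300) at 82.87-fold. A second induced peak (34774018 to 34774775) held 48 tags (35.4 to 63.6) at 41.88-fold and was assigned upstream of Gapvd1, a gene on the other strand. The noninduced peak inside the gene (34775293 to 34776339, exon) held 29 tags (19.4 to 41.6) at 7.82-fold.

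The first induced peak and the noninduced peak at Hspa5 shared 855 bp, and their summits were 61 bp apart. The 266 tags were exceeded or equalled by 0.201% of induced peaks, and the 29 tags by 4.24% of noninduced peaks. Their density was 27.2 tags per 100 bp in the induced and 2.77 in the noninduced peak, where the list medians were 2.1 and 2.49. By tags in peaks inside the gene and not over a pseudogene, Hspa5 was 16th of 7661 genes in the induced list, and its 314 tags were 55.5% of those inside the 10 genes. The other genes together held 252 induced and 92 noninduced tags. A further noninduced peak of 21 tags at 7.33-fold, beyond the end of the gene and 12394 bp from its start site, was assigned to Hspa5 as intergenic.

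Hsp90b1 encodes GRP94, the Hsp90 chaperone of the ER, which acts on a narrower set of clients after BiP. It spans 14604 bp on chromosome 10 (86690841 to 86705444, - strand) and held 3 induced peaks. An intron peak (86693745 to 86694637) had 56 tags (42.3 to 72.7) at 39.73-fold. An exon peak at the end of the gene (86690843 to 86691132) had 23 tags (14.6 to 34.5) at 24.7-fold. Another exon peak, nearer the start (86701574 to 86702218), had 24 tags (15.4 to 35.7) at 23.62-fold. All 3 peaks passed 20-fold, and together they held 103 tags (84.1 to 125), the second highest sum of the 10 genes. The noninduced list held no peak at Hsp90b1, and its nearest one lay 91.2 kb away.

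Hyou1 and Manf encode other chaperones of the lumen. Hyou1 is a large Hsp70-related protein that exchanges nucleotide on BiP, and Manf is a secreted and ER-resident factor that binds BiP. No peak lay inside Hyou1 in either list. An induced peak of 83 tags (66.1 to 103) at 52.62-fold ended 4034 bp before its start and was assigned to both Hyou1 and Vps11. That peak (chromosome 9, 44374421 to 44375456) overlapped the annotated pseudogene Gm10080 (44374598 to 44375210). It was the only one of the 23 peaks of the 10 genes that overlapped a pseudogene.

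Manf, at 3186 bp the shortest of the 10, held an induced peak of 22 tags (13.8 to 33.3) at 23.62-fold (chromosome 9, 106888985 to 106889266). The authors assigned it upstream of Rbm15b, which lies beyond the end of Manf. The noninduced list held no peak inside Manf, and a peak of 21 tags at 6.35-fold assigned to it lay 95961 bp upstream.

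Calr and Canx encode calreticulin and calnexin, the lectin chaperones that hold newly made glycoproteins, the first soluble in the lumen and the second anchored in the membrane. Calr (chromosome 8, 84842088 to 84846931, - strand) held 1 peak in each list at different places. The induced peak (84844607 to 84844836) had 17 tags (9.9 to 27.2) at 18.25-fold in the middle of the gene, was only 230 bp long and was assigned upstream of Farsa. The noninduced peak (84846134 to 84847061) had 22 tags (13.8 to 33.3) at 5.86-fold, was classed as promoter and had its centre 334 bp downstream of the start site. The gap between these peaks was 1297 bp.

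Canx held no peak inside in either list. In the induced list the nearest peak lay 56.3 kb away. In the noninduced list a peak of 29 tags (19.4 to 41.6) at 7.82-fold lay 14568 bp upstream and was assigned to Canx. Another noninduced peak, of 19 tags at 8.31-fold and classed as a promoter peak of Maml1, lay 629 bp beyond the end of Canx, and was the closest outside any of the 10 genes.

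Pdia3, Pdia4 and Pdia6 encode protein disulfide isomerases, and Pdia3 (ERp57) works on glycoproteins held by calreticulin and calnexin. Pdia4 (ERp72) spans 17372 bp on chromosome 6 (47796141 to 47813512, - strand) and held 3 induced peaks. From the end of the gene towards its start, these had 35 tags (24.4 to 48.7) at 26.32-fold (47796272 to 47796759), 23 tags (14.6 to 34.5) at 23.62-fold (47798356 to 47798778) and 14 tags (7.65 to 23.5) at 13.65-fold (47806964 to 47807236). The noninduced list held 1 peak inside Pdia4 (47796387 to 47797138) of 20 tags (12.2 to 30.9) at 5.38-fold. It shared 373 bp with the induced peak at the end of the gene, and the summits were 234 bp apart. All 4 peaks were assigned to Mir704, a microRNA gene that lies within Pdia4 (47803576 to 47803652), so neither list names Pdia4.

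Pdia3 (chromosome 2, 121413902 to 121438687, + strand) held 1 peak in each list, both in the last part of the gene and 3632 bp apart. The induced peak (121433462 to 121433949) had 25 tags (16.2 to 36.9) at 15.7-fold and was assigned upstream of Serf2. The noninduced peak (121437582 to 121438184) had 15 tags (8.4 to 24.7) at 5.86-fold and was assigned to Ell3. The noninduced value was low in its list, where 90.9% of peaks had at least as many tags, whereas 3.86% of induced peaks had at least 25. Pdia6 (P5) held no peak inside in either list. A noninduced peak of 19 tags (11.4 to 29.7) at 7.41-fold was assigned to it from 15406 bp upstream, and the nearest induced peak was 72.6 kb away.

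Ero1a encodes the oxidase that passes disulfide bonds to protein disulfide isomerase. It is the longest of the 10 genes at 35486 bp (chromosome 14, 45283087 to 45318572, - strand). Its induced peak (45317769 to 45318277) was classed as promoter and held 13 tags (6.92 to 22.2) at 7.52-fold, with its centre 550 bp past the start site. In the noninduced list, a promoter peak (45318392 to 45319095) held 18 tags (10.7 to 28.4) at 5.86-fold with its centre 171 bp upstream, and an intron peak (45308263 to 45309030) held 17 tags (9.9 to 27.2) at 5.38-fold. The promoter peaks of both lists lay 114 bp apart, and only 181 of the 704 bp of the noninduced one fell inside the gene. Tags summed over the peaks inside numbered 13 in the induced and 35 in the noninduced list at Ero1a. That noninduced sum includes the 18 tags of the promoter peak, whose centre lay outside the gene. Calr, with 17 and 22 tags and overlapping intervals, was the only other of the 7 genes where the induced sum was the lower. Genes without a noninduced peak inside were taken as 0 here. The depth of the libraries is unknown and their lowest listed tags differ, so these sums give no direction between the conditions.

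**Figure D2:**
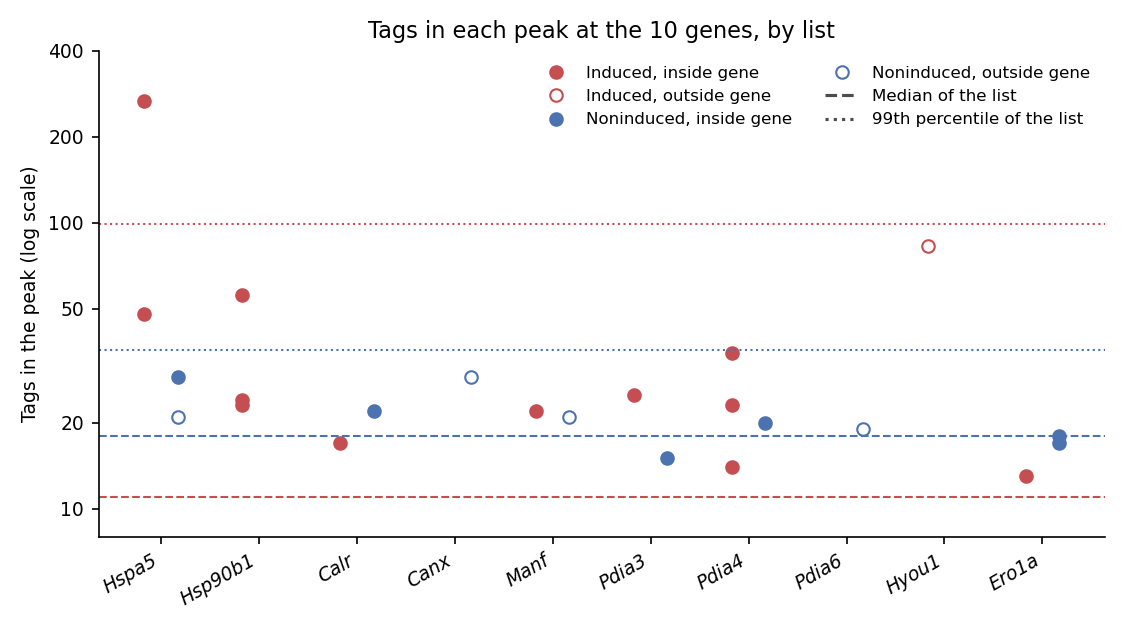
Tags in each peak inside (filled) or assigned from outside (open) the 10 genes, on a log scale, with induced peaks in red left of noninduced peaks in blue. Dashed lines mark the median of each list (11 induced, 18 noninduced) and dotted lines the 99th percentile (99 induced, 36 noninduced); 1 induced peak, at Hspa5, lies above the dotted line of its list.

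Among themselves the 10 genes fell into those with a strong induced peak inside and those without. Peaks of at least 20-fold lay inside 4 of the 10 genes in the induced list, Hspa5, Hsp90b1, Pdia4 and Manf, and inside none in the noninduced list. Over all genes the share was 2.13% in the induced list and 0.0% in the noninduced list, and in genes of like length the induced share was 1.83%. When peaks over pseudogenes were left out these induced shares were 1.43% and 1.55%, and the 4 genes were the same. With 2 or more such peaks there were 3 of the 10, Hspa5, Hsp90b1 and Pdia4, against 0.14% of all genes and 0.23% of genes of like length. The members nearest this threshold stood at 23.62-fold (Hsp90b1, Manf and Pdia4) and 18.25-fold (Calr). A −log10 p of 10 or more was listed for 11 of the 12 induced and 0 of the 6 noninduced peaks inside the genes, where 6.07% of induced and 0.838% of noninduced peaks reached it. The authors' false discovery rate was 0.0 to 0.09% for the induced and 1.89 to 5.57% for the noninduced peaks inside the genes. No values of this rate over each whole list were computed, so it does not set these genes apart from other peaks. Since these genes were proposed with results of these data known, the counts are a description and no test is attached to them.

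A promoter peak was assigned to 1 of the 10 genes in the induced list (Ero1a) and to 2 in the noninduced list (Ero1a and Calr). Over all genes 7.17% held an induced and 6.47% a noninduced promoter peak, and in genes of like length 7.26% and 6.83% did. Promoter peaks were therefore not scarcer at the 10 genes than elsewhere, and counts of 1 and 2 genes are too small to set them apart. Any assigned peak was found at 4 genes in the induced list (Hspa5, Hsp90b1, Hyou1 and Ero1a), where 45.4% of all genes and 39.7% of those of like length had one. In the noninduced list it was found at 6 (Hspa5, Calr, Canx, Manf, Pdia6 and Ero1a), where 34.7% and 29.3% had one. The induced count of 4 was near its shares of 45.4% and 39.7%, and it became 3 without the Hyou1 peak over a pseudogene. By assignment the induced list named fewer of the 10 than the noninduced list and by position more, with 1 ChIP library for each.

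**Figure D3:**
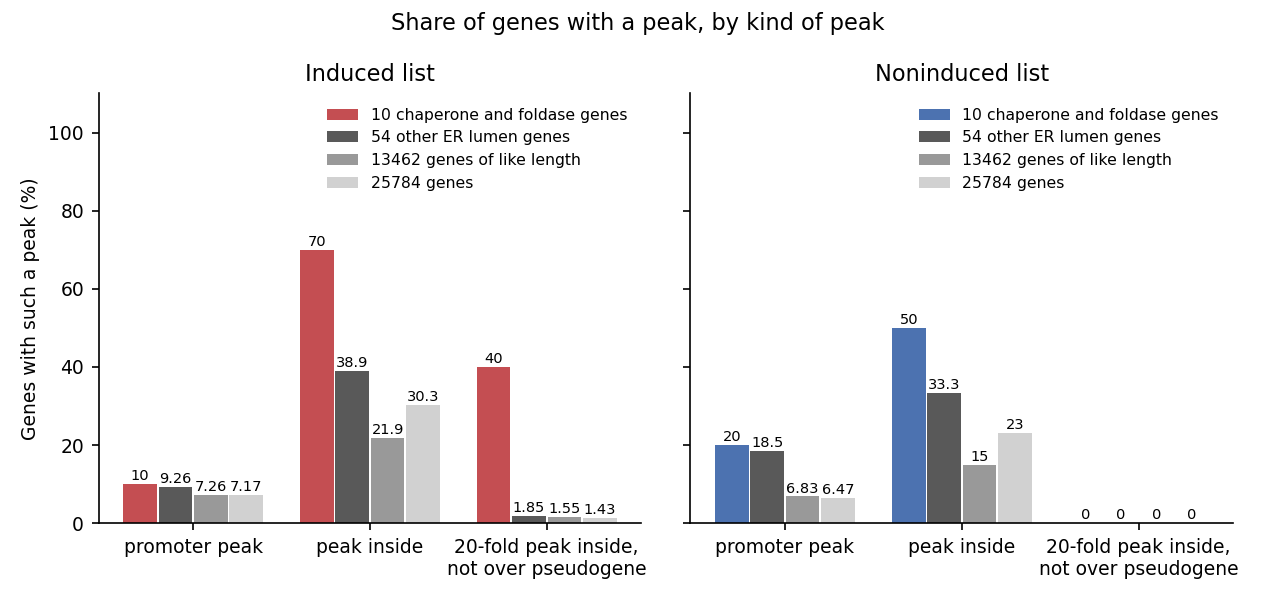
Share of genes, in percent, with a promoter peak, a peak inside, or a peak of at least 20-fold inside that is not over a pseudogene, in the induced (left) and noninduced (right) list. Coloured bars are the 10 genes and grey bars the other ER lumen genes, the genes of like length and all genes. The coloured bar of strong induced peaks stands at 40%, against 1.43% of all genes. The 10 genes and the other ER lumen genes were chosen with earlier results of these data known, so the bars are a description.

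The position of the peaks along the genes leaned to the 3′ end. Of the 12 induced peaks inside the genes, 7 had their centre in the last 25% of the gene, at Hspa5, Hsp90b1 (2 peaks), Manf, Pdia3 and Pdia4 (2 peaks). Over all 3452 induced peaks in genes of like length, which include the 10, 31.9% did. Of the 8 induced peaks of at least 20-fold, 6 did. Among induced peaks of at least 20-fold in genes of like length and not over pseudogenes, 63.3% of 240 lay in the last 25%, and among induced peaks under 20-fold 29.6% of 3173 did. The share of strong peaks in the 10 genes, 75.0%, was therefore near that of strong peaks in genes of like length, and is not a result about these genes. In the noninduced list 3 of 6 peaks lay there, at Hspa5, Pdia3 and Pdia4, where 22.4% of 2187 did in genes of like length.

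**Figure D4:**
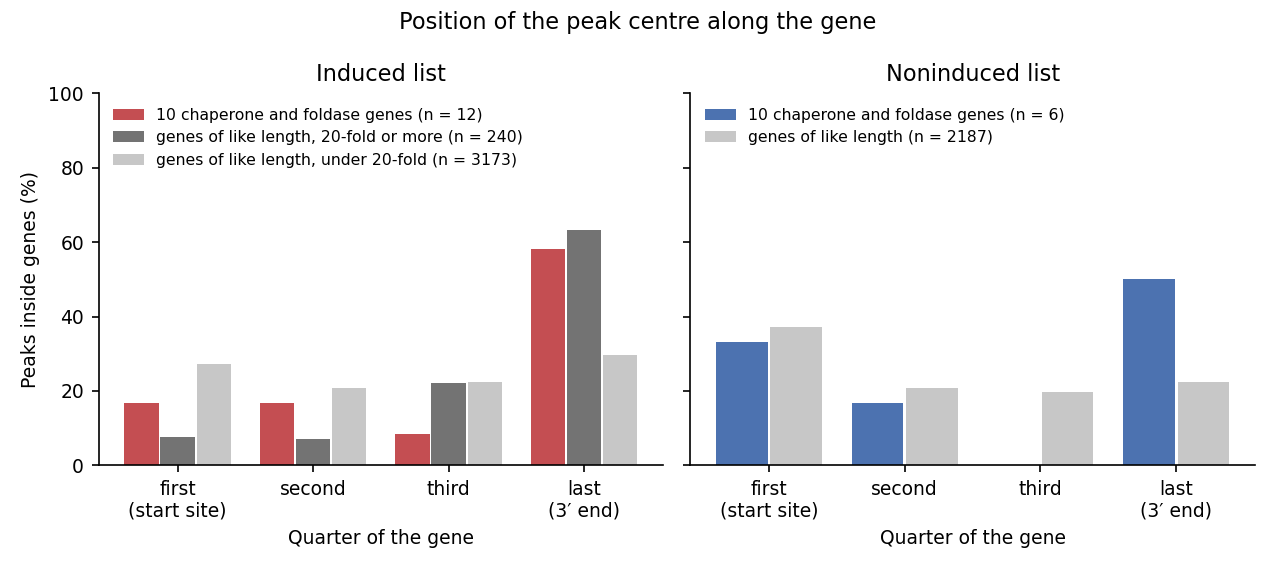
Share of peaks inside genes, in percent, by the part of the gene (4 equal parts from start site to 3′ end) that holds the peak centre, in the induced (left) and noninduced (right) list. A peak inside 2 overlapping genes counts for each; in the induced list the last part held 58.3% of the peaks of the 10 genes. In genes of like length, the 10 included, it held 31.9% of 3452 peaks, 63.3% of those of at least 20-fold outside pseudogenes (dark grey) and 29.6% of those under 20-fold (light grey).

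Some induced peaks inside the genes were short. At most 300 bp was found for 4 of the 12, at Hsp90b1 (290 bp), Manf (282 bp), Pdia4 (273 bp) and Calr (230 bp), a limit chosen after the values were seen. In the whole induced list 1.26% of peaks were that short, and 5.6% of the strong peaks in genes of like length outside pseudogenes. No noninduced peak in the list was that short, and its 6 peaks inside the genes had a median of 760 bp. Positions listed in both conditions were also found here, at Hspa5 and Pdia4. That is 2 of 12 induced peaks inside the genes. Of all induced peaks 1.63% overlapped a noninduced peak, and of those inside genes of like length 2.63% did. Both peaks were among the 8 of at least 20-fold, and of such peaks in genes of like length outside pseudogenes 11.2% overlapped one. A count of 2 peaks is too small to set the 10 genes apart from that share.

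A further 54 genes of the ER lumen, among them other disulfide isomerases, BiP cochaperones, prolyl isomerases and glycoprotein-processing enzymes, were described in the same way. They too were chosen with earlier results of these data known. Peaks lay inside 21 of the 54 in the induced list and inside 18 in the noninduced list, against the 30.3% and 23.0% of all genes given above. In the induced list 1 of the 54 held a peak of at least 20-fold inside, Serpinh1, the collagen chaperone HSP47, with an exon peak of 42 tags at 42.95-fold. That share, 1.85%, lay near the 2.13% of all genes. Outside the genes, induced peaks over pseudogenes were assigned to Tmx3 (97 tags at 82.68-fold) and Selenof (67 tags at 68.72-fold), a membrane disulfide isomerase and an ER selenoprotein.

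Promoter peaks were listed at 5 of the 54 in the induced list (9.26%, against 7.17% of all genes), Fkbp14, Prkcsh, Sdf2l1, Tmx3 and Txndc5, with 10 to 13 tags each. They were listed at 10 in the noninduced list (18.5%, against 6.47% of all genes), Erp27, Erp44, Gpx7, Gpx8, Mogs, Ppib, Prdx4, Txndc5, Uggt1 and Uggt2, with 14 to 31 tags. Txndc5, a disulfide isomerase, was the one gene with a promoter peak in both, of 10 tags at 8.59-fold (induced) and 23 tags at 6.84-fold (noninduced). No share was computed for genes as long as the 54. Both lists held a peak inside 11 of the 54 (20.4%, against 13.6% of all genes), namely Dnajc1, Dnajc10, Dnajc3, Erp44, Sec63, Sil1, Tmx4, Txndc11, Txndc5, Uggt1 and Uggt2. The strongest of these induced peaks was in an intron of Sec63, the translocon partner of BiP, with 29 tags at 12.83-fold. The induced peak inside Dnajc3, of 13 tags at 10.74-fold, lay over a pseudogene. Peaks of both lists inside a gene need not share a position, and those inside Dnajc3 did not overlap. The ER stress response element was in the promoters of 3 of the 45 with a RefSeq promoter, Creld2, Dnajc3 and Ero1b. Here a gene counted if any of its listed promoters held the element, whereas the 0.119% given above is a share of promoters.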

How the data were processed

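ChIP-seq of transketolase was measured in 4 libraries, a ChIP and an input library for each of induced and noninduced retina. Methanol crosslinking and sonication are given per the labels' protocols. Bowtie2 2.2.7, FastQC and the build mm10 (GRCm38) are named in the submitters' processing notes, and the sources used here name no peak caller. The authors deposited, per the file headers, whole tag counts in each peak, a fold enrichment (a ratio to a background), a score of 10 times −log10 p and a false discovery rate in percent. Each ChIP library was called against its own input, and 3 sheets held no values. A peak listed on several lines, 1 for each transcript, was counted once here. Genes were matched by RefSeq accession to a GRCm38.p6 table, and 1 bp of overlap counted as inside.

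The members and lists were chosen with earlier results of these data known. Named were the 10 genes and, of the other 54, those with a 20-fold induced peak, a promoter peak or peaks inside in both lists. Poisson intervals are exact at 95%. Overlaps and motif searches were tested on simulated data. A planned look at protein sequences was not made. Thresholds, overlap rules and promoter distances were varied. Values were computed with scipy 1.17.1, numpy 2.4.6 and pandas 2.3.3 under Python 3.11.15, and drawn with matplotlib 3.10.9.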

Additional observations from a re-analysis of the deposited data

How the results depend on the processing

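No paired analysis was possible because there were no replicates, and for that reason none could be left out. Of 62 values under other settings 49 stayed within 1.5 times the reported count and 13 moved. With peaks limited to a −log10 p of 10 or more, and likewise to 20-fold or more, the noninduced counts became 0 genes with an assigned peak, 0 genes with a peak inside, 0 peaks inside, 0 tags and 0 genes with a promoter peak. The induced count of genes with a promoter peak became 0 under both settings, and the induced count of genes with a peak inside became 4 at 20-fold. These settings leave fewer peaks by construction. Equal numbers of top peaks, peaks not over pseudogenes, the other overlap rules, wider genes and other promoter distances moved none of the counts beyond 1.5 times. Some counts changed within that limit. With genes widened by 2 kb, the noninduced peaks inside numbered 8 with 158 tags. Tags near the lowest listed value, 10 induced and 14 noninduced, limit the weak peaks at Ero1a, Pdia3 and Pdia4.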
